A study of Mus musculus with 2 samples.

Results

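The genes described here build and load major histocompatibility complex (MHC) class I, the surface molecule that shows peptides from inside a cell to CD8 T cells. There are 9 of them, out of 19698 named genes on the array: H2-K1, H2-D1, B2m, Tap1, Tap2, Tapbp, Psmb8, Psmb9 and Psmb10. They were chosen by name, and every probe that the scanner files assign to one of these names was taken, 18 probes in all. RNA came from stable lines of NIH3T3, a mouse fibroblast line of embryonic origin, made by transfecting pcDNA3.1 and selecting with G418. The plasmid was empty in the control (the control array below), and in the other group it carried MARVELD1, which encodes a MARVEL domain protein. Each group is 1 array, so plasmid integration and selection of a line cannot be told apart from MARVELD1, and nothing between the groups could be tested. Because the RNA is of bulk cells, fewer cells expressing a gene and less of its RNA per cell cannot be told apart. Where a spread is printed, it is technical, from repeated spots or from different probes.

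In class I molecules a heavy chain, such as H2-K1 or H2-D1, pairs with beta-2 microglobulin, the product of B2m. Peptides are cut by the proteasome, pumped into the endoplasmic reticulum by the transporter formed from Tap1 and Tap2, and loaded with the help of tapasin, the product of Tapbp. Psmb8, Psmb9 and Psmb10 encode the immunoproteasome subunits that take the place of the constitutive catalytic subunits, and interferons are known to raise most of these genes.

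Values are processed fluorescence intensities, and a log2 difference is the array labelled MARVELD1 minus the control array after each was divided by its own 75th percentile (768.1 in the control, 703.3 in the other). Marveld1 itself read lower on the array labelled MARVELD1 at both of its probes, by log2 differences of -0.34 and -0.42, and the sources used here do not say whether these probes read the insert, so every direction rests on the label. The median log2 difference of all 16532 detected genes was 0.19, with quartiles of -0.14 and 0.50. This median was 0.08 when arrays were scaled to their own medians and 0.04 after loess, so differences are also given relative to it. A probe counted as detected when the scanner program called it well above background, and a gene was represented by its brightest detected probe. For 178 repeated probes the spot variances of the 2 arrays were added without pairing spots by position, as in the standard errors below. The SD of a single-spot log2 difference obtained in this way was 0.17 for the 60 brightest, 0.27 for the 59 in the middle and 0.58 for the 59 dimmest. Variation that a position shares on both arrays is counted in it. Fibroblast markers were detected for 11 of 12 genes, with summed intensities of 747213.2 (control) and 583603.2. Of these 11, 9 lay below the median of all genes, where 50% of genes lie by construction. By brightest probe 3 were at least 2-fold lower, against 3.57% of all genes. These were Pdgfrb (-2.10), Col3a1 (-1.56, another probe -0.10) and Fn1 (-1.12, another probe -2.47), with Vim (0.21) and S100a4 (0.25) highest. Another probe of Col1a1 was at -1.60, of Thy1 at -1.61 and of Pdgfra at 0.03. The part of this shift in the class I values was not tested. Leukocyte markers were detected for 17 of 20 genes, with sums of 8784.7 and 8677.1, and 7 of the 17 stayed under 100 on both arrays. The defining leukocyte gene Ptprc read 44.2 and 55.1, where the lowest intensities called well above background were 36.6 and 37.9. Other markers on the list were well measured, among them Cd14 at 4194.7 and 2999.1, Itgax at 912.2 and 1256.1 and Cd3e at 742.8 and 1019.6. Of those measured on both arrays, Fcer1g (644.3 and 1184.9, 1.01) and Cd4 (0.72) had the highest differences and Cd14 (-0.36) the lowest, and Cd3d has only a bound, at least 1.27-fold lower.

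None of the 9 genes differed by 2-fold or more at its brightest probe (0 lower and 0 higher), where 3.57% of all detected genes were at least 2-fold lower and 5.52% at least 2-fold higher. The median log2 difference of the 9 was -0.01, or -0.20 relative to all genes. By sign, 5 of 9 lay below 0, against 34.4% of all genes, and 6 of 9 lay below the median of all genes, where 50% of genes lie by construction. Tap1 was the only one of the 9 at least 2-fold lower once the median of all genes was taken off (-1.15, but -0.76 and so no longer past 2-fold with normexp), a range in which 5.27% of all genes lay, and 0 of 9 were at least 2-fold higher on that scale, against 3.3% of all genes. With a limit of 1.5-fold, 1 of 9 was lower (Tap1), against 9.03% of all genes, and 1 was higher (Psmb10), against 19.7%. At the other end stood Psmb10, with 84.1% of all genes at or below it. All 9 genes had a detected probe, and on both arrays 16 of the 18 probes passed this call. Of these 16 probes, 10 lay below 0, 1 was at least 2-fold lower (of H2-K1) and 1 at least 2-fold higher. The higher probe is dim and, although named H2-D1, is placed away from the other H2-D1 probes. The shares of all genes above are by brightest probe, and shares over all probes were not computed.

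**Figure D1:**
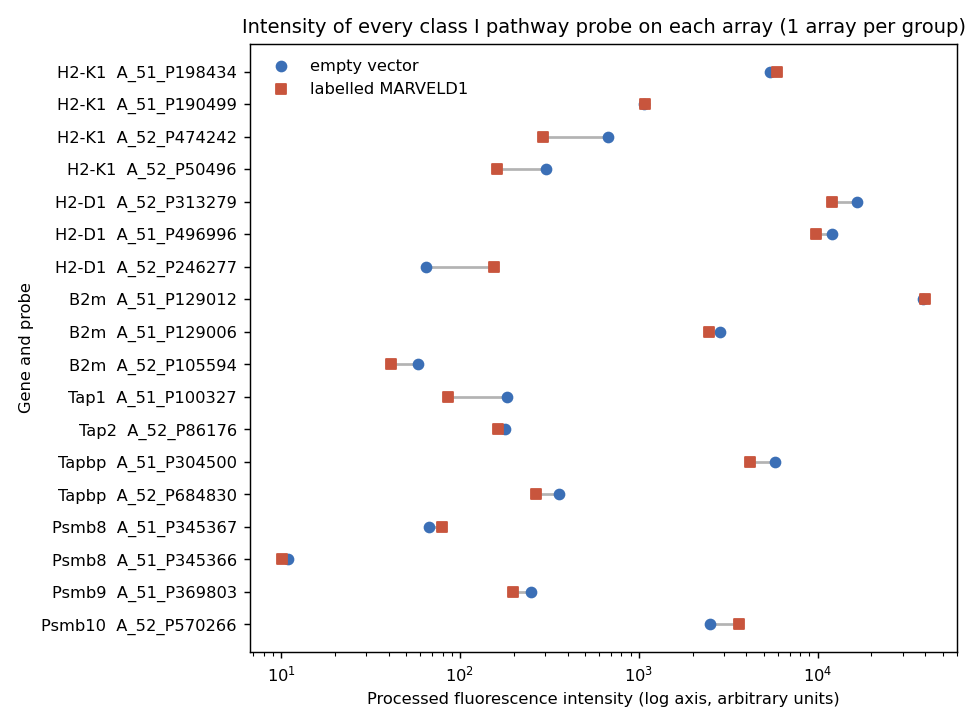
Processed intensity (horizontal, log axis, arbitrary units) of each of the 18 probes on the control array (circles) and the array labelled MARVELD1 (squares), 1 array per group, before scaling. The squares lie left of the circles for both Tapbp probes and for Tap1 (183.1 and 86.2), and to the right for Psmb10 (2497.2 and 3628.2).

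The heavy chain gene H2-K1 differed between its 5′ and 3′ probes, so the probes are shown before their values. Both of the following probes lie toward the 5′ end of H2-K1 and have a reading frame with no stop codon over the whole probe. Capitals mark the longest run each shares with a probe of another gene on the array, of H2-Bl for the first and of H2-Q10 for the second.
H2-K1 A_52_P474242: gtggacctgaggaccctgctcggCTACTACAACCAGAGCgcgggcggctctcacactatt
H2-K1 A_52_P50496: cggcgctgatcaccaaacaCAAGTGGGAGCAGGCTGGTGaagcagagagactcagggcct
H2-Q10 A_52_P428354: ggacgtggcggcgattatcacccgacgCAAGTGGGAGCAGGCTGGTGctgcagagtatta

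H2-K1 probe A_52_P474242 (mm9 chr17:34136478-34136724, minus strand) read 676.1 in the control and 293.3 on the array labelled MARVELD1, a log2 difference of -1.08, or 2.11-fold lower. The files place its 60 bases over 247 bases of the genome, so the placement contains a gap. Probe A_52_P50496 (chr17:34136288-34136347) read 303.9 and 161.8, a log2 difference of -0.78. Both differences exceed the SD of 0.27 for single spots of this brightness. The H2-Q10 probe that shares a run of 20 bases with the second of them read 1477.1 and 583.6, a log2 difference of -1.21. Other H2-Q10 probes gave -0.48 (the brightest, at 9302.7 and 6100.9) and 0.07. The H2-Bl probe that shares 16 bases with the first read 21.0, not well above background, and 70.1, in the opposite direction. H2-Q10 is another class I heavy chain gene, and to what extent such probes read each other's transcripts was not tested.

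At the 3′ end the same gene read slightly higher. Probe A_51_P198434 (chr17:34133055-34133114), printed 10 times per array, read from 4975.4 to 6177.2 with a median of 5397.7 in the control. On the array labelled MARVELD1 its spots read from 5683.8 to 6430.7, with a median of 5840.0. Its log2 difference was 0.26, and the standard error from spot noise alone was 0.034. Scaled spots were higher on the array labelled MARVELD1 at 10 of 10 positions, and relative to the median of all genes the difference was 0.07, or -0.02 after loess or quantile normalization. Another probe, A_51_P190499, which the files assign to H2-K1 under another accession and list as unmapped, read 1069.9 and 1082.9, a log2 difference of 0.14. Its sequence matches that of A_51_P198434 at 49 of 57 aligned bases. The 30 aligned bases below, with differing bases in capitals, show how alike these probes are.
H2-K1 A_51_P198434: tgaatGtAaccttgattgttatcatCTtga
H2-K1 A_51_P190499: tgaatAtGaccttgattgttatcatTGtga

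Between the outermost measured H2-K1 probes, 3516 bases apart, the 5′ difference minus the 3′ difference was -1.34. Over 4655 genes with measured probes at least 500 bases apart, this quantity had a median of -0.28 and quartiles of -0.69 and 0.14, and 6.04% of the genes lay at or below the H2-K1 value. The H2-K1 call therefore turned on the probe. Its brightest probe gave 0.26, and the mean of its 4 probes gave -0.36.

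**Figure D2:**
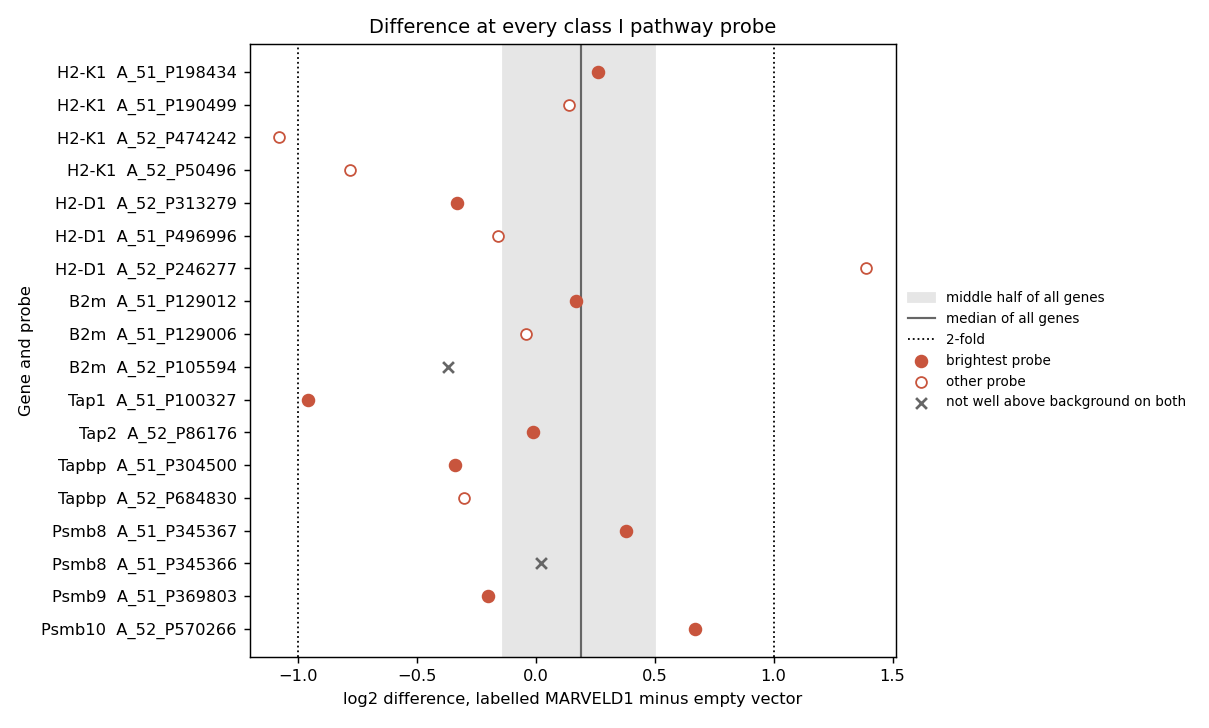
Log2 difference (horizontal, array labelled MARVELD1 minus empty vector) of each of the 18 probes. Filled circles are the brightest probe of a gene, open circles other probes and crosses probes not well above background on both arrays, and the shaded band from -0.14 to 0.50 spans the quartiles of all genes around their median of 0.19. The H2-K1 probes lie between -1.08 and 0.26, and those of Tapbp lie together at -0.34 and -0.30.

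H2-D1, the other classical heavy chain gene among the 9, read lower at both probes placed at the gene. Probe A_52_P313279 (mm9 chr17:35403132-35403191) read 16542.3 and 12020.9, a log2 difference of -0.33, or -0.52 relative to the median of all genes. Probe A_51_P496996 (chr17:35403437-35403669) read 11966.3 and 9773.0, a log2 difference of -0.16. Before adjustment the first is about 2 times the SD of 0.17 for bright single spots, and the second lies within it. The second exceeded this SD relative to the median of all genes (-0.35) and after loess (-0.44). Another probe under this name, A_52_P246277, is placed by the files at chr17:36323454-36323516 on the opposite strand, away from the other probes. It read 64.3 and 154.8, a log2 difference of 1.39 in the opposite direction, in a range of brightness where single spots had an SD of 0.58. With all 3 probes averaged H2-D1 was at 0.30, and with the pair placed at the gene at -0.25, an average added after the values had been seen.

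The brightest H2-D1 probe shares 24 bases, in capitals, with a probe of the class I gene H2-Q2, which is why the pair is printed.
H2-D1 A_52_P313279: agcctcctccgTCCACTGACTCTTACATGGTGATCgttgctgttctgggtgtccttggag
H2-Q2 A_51_P219789: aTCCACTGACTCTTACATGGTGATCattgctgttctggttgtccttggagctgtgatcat
The H2-Q2 probe read 8303.4 and 6233.9, a log2 difference of -0.29, near the -0.33 of H2-D1. Class I heavy chain genes are known for their likeness to each other, and these arrays cannot assign such a signal to 1 gene.

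B2m, whose product every class I heavy chain needs for a stable surface molecule, stayed near the median of all genes. Its brightest probe, A_51_P129012 (mm9 chr2:121978401-121978460), read 38730.9 and 39990.3, a log2 difference of 0.17, or -0.02 relative to the median of all genes. The unadjusted difference turned to -0.15 after loess and -0.08 after quantile normalization. Probe A_51_P129006 (chr2:121978525-121978581), printed 10 times per array, ranged from 1575.4 to 3772.6 with a median of 3002.5 in the control. On the array labelled MARVELD1 it ranged from 1935.2 to 2824.4 with a median of 2484.8. Its log2 difference was -0.04, with a standard error from spot noise of 0.147, and 4 of 10 spots were higher on the array labelled MARVELD1. The spots of the 2 arrays overlapped. Their SDs on the log2 scale, 0.42 in the control and 0.21 in the other, were larger than the 0.10 and 0.05 of the repeated H2-K1 probe. Another probe, A_52_P105594 (chr2:121974599-121974658), read 58.6 and 41.4 and was not well above background on the array labelled MARVELD1.

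**Figure D3:**
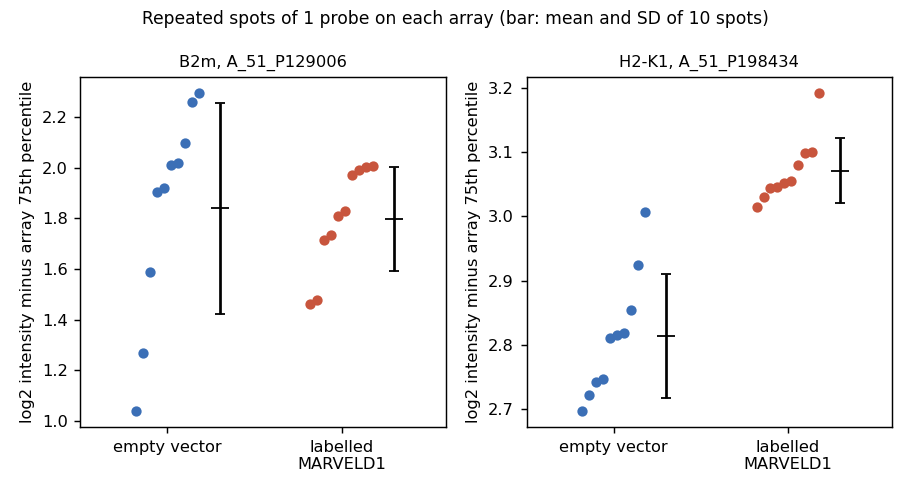
Scaled log2 intensity (vertical, log2 minus the 75th percentile of the array) of the 10 spots of a B2m probe and of an H2-K1 probe on each array, with a bar for the mean and SD of the spots. The B2m spots overlap between arrays (SDs of 0.42 and 0.21), and the H2-K1 spots of the array labelled MARVELD1 begin where those of the control array end, at 3.01 on each when rounded.

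Among the peptide transport and loading genes, Tap1 and Tapbp read lower and Tap2 was near 0. Tap1, one chain of the transporter, has 1 probe, A_51_P100327 (mm9 chr17:34330854-34330913), printed here with a probe of its neighbour Psmb9.
Tap1 A_51_P100327: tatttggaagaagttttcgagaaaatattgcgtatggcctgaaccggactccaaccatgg
Psmb9 A_51_P369803: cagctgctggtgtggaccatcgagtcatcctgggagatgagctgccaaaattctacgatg

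The Tap1 probe read 183.1 in the control and 86.2 on the array labelled MARVELD1, a log2 difference of -0.96, or 1.95-fold lower, and -1.15 relative to the median of all genes. Only 4.15% of all detected genes lay at or below it. It is a single spot among the dimmest probes, where single-spot differences had an SD of 0.58. Tap2, which encodes the partner subunit, read 178.8 and 162.9 at its probe A_52_P86176 (chr17:34351722-34352309), a log2 difference of -0.01, or -0.20 relative to all genes. Tap1 minus Tap2 was -0.95 with 75th percentile scaling and -0.66 with normexp background correction. The Tap2 probe is also a single spot among the dimmest, so this contrast carries the noise of both genes, each with an SD of 0.58.

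Tapbp encodes tapasin, which bridges the transporter and the empty heavy chain. Its brighter probe, A_51_P304500 (mm9 chr17:34066022-34066081), read 5781.9 and 4193.1, a log2 difference of -0.34, or -0.53 relative to all genes. The dimmer probe, A_52_P684830 (chr17:34063096-34063155), read 360.2 and 266.9, a log2 difference of -0.30. Lying 2926 bases apart along the gene, these probes differed by only 0.03, unlike those of H2-K1. Before adjustment the first is 2 times the SD for its brightness, and the second is near the SD of 0.27. Relative to all genes the second was at -0.49.

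The immunoproteasome genes differed in direction. Psmb10, the subunit also called MECL-1, read 2497.2 in the control and 3628.2 in the other at probe A_52_P570266 (mm9 chr8:108459677-108459736), a log2 difference of 0.67, or 1.59-fold higher, and 0.48 relative to all genes. This is the largest difference upward among the brightest probes of the 9 genes, and it exceeds the SD of 0.17 for bright single spots. Psmb9, the subunit also called LMP2, read 249.0 and 198.0 (chr17:34319174-34319233), a log2 difference of -0.20, or -0.39 relative to all genes. The unadjusted value lies within the SD of 0.27 for its brightness, and the relative value lies beyond it. Psmb8, also called LMP7, was dim, at 66.9 and 79.9 (probe A_51_P345367, chr17:34337771-34337830), a log2 difference of 0.38 within the SD of 0.58 for dim spots. Its other probe, A_51_P345366, did not pass the background call on either array.

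Constitutive catalytic subunits, which these replace, were bright and read higher on the array labelled MARVELD1. Psmb5 was at 12734.3 and 16560.9, a log2 difference of 0.51, Psmb6 at 24153.9 and 31800.4 (0.52) and Psmb7 at 4904.9 and 6809.9 (0.60). Each inducible subunit was then set against the constitutive one it replaces. Psmb8 minus Psmb5 was -0.12, Psmb9 minus Psmb6 was -0.73 and Psmb10 minus Psmb7 was 0.07, so Psmb10 was higher by about as much as its constitutive counterpart. For the Psmb9 pair quantile normalization gave -0.56, loess -0.51 and normexp -0.71. All other ways of processing gave -0.73, since scaling cancels between 2 genes and the remaining choices left their probes unchanged.

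**Figure D4:**
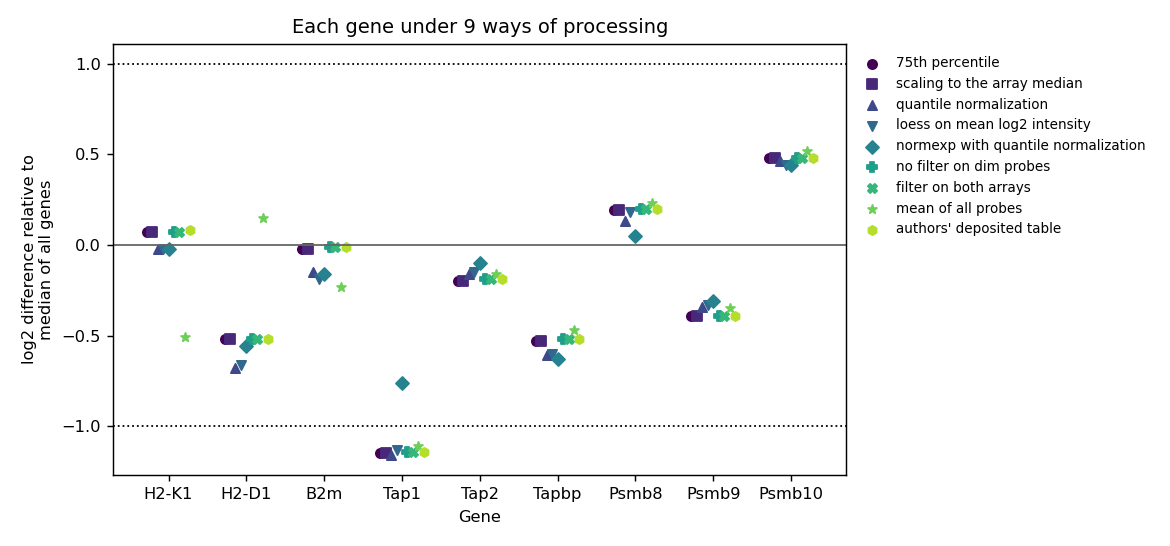
Log2 difference of each of the 9 genes relative to the median of all genes (vertical) under 9 ways of processing, shown as symbols. Tap1 lies between -1.16 and -0.76, Tapbp between -0.63 and -0.47 and Psmb10 between 0.44 and 0.52, whereas H2-K1 and H2-D1 move to -0.51 and 0.15 when all probes are averaged.

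Promoters were read from RefSeq (GRCm38.p6) for 8 of the 9 genes, as windows from 250 bases before to 50 after each annotated start. The H2-K1 and H2-D1 stretches are printed because these genes, whose brightest probes differed in direction, carry nearly the same upstream sequence. Capitals mark, in order, the NF-kB site (the first run), the interferon response core GAANNGAAA (here on the opposite strand), TGACGCG, known as site alpha, and CCAAT on the opposite strand.
H2-K1, chr17:34000347-34000468, minus strand: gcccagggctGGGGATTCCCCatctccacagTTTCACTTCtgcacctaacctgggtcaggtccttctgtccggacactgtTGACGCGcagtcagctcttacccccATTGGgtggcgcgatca
H2-D1, chr17:35262913-35263034, plus strand: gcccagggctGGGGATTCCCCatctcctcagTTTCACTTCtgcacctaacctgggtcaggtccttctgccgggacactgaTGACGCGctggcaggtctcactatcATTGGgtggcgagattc

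Of 122 bases, 108 are identical without gaps. Both strands of all 32851 windows were searched. The NF-kB run was found in 10 of them (0.0304%), 3 of which belong to H2-K1 (2 windows) and H2-D1, and 1 to the class I gene H2-Q6. GAANNGAAA was found in 7.52% of windows, TGACGCG in 1.91% and CCAAT in 37.4%, and among the 8 genes with a window the first 2 of these were found in H2-K1 and H2-D1 alone. A longer interferon response core, GAAA, then any 2 bases, then GAAA, present in 3.44% of windows, was found in B2m and in none of the other 7 genes with a window, and it is in capitals here.
B2m, chr2:122147538-122147582, plus strand: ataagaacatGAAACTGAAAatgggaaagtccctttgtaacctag

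Tap1 and Psmb9 are transcribed away from each other, and their annotated starts lie only 225 bases apart. The sequence between them is shown on the Tap1 strand, since it lies upstream of both genes. Capitals mark CCAAT and GGGCGG, the GC box, here on the opposite strand.
Tap1 and Psmb9, chr17:34187331-34187555: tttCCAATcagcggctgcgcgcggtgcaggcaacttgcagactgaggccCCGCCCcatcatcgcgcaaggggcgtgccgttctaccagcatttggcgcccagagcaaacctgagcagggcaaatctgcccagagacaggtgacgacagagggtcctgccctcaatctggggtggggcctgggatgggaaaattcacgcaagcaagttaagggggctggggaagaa
Both genes were on the lower side, Tap1 at -0.96 and Psmb9 at -0.20, and Tap1 minus Psmb9 was -0.76, or -0.45 with normexp. Each was read from a single spot, with SDs of 0.58 and 0.27 for their brightness, and this contrast carries the noise of both. GGGCGG was found in 35.7% of all windows. A match to letters is a description and says nothing here about binding.

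Most other class I heavy chain and class I-like genes lay below the median of all genes. Of 27 such genes on the list, 20 had a probe and 15 were detected, and 13 of these 15 lay below the median of all genes, with a median of -0.45 relative to it. By brightest probe none was at least 2-fold lower (0), against 3.57% of all genes, although other H2-Q10 probes gave -1.21 and 0.07. At least 2-fold higher was 1 gene, H2-Bl, against 5.52% of all genes. H2-Bl read 21.0, not well above background, and 70.1, at least 2.32-fold higher against a floor of 33.0 on the control array. This floor is the lowest mean log2 signal of a probe well above background. Against the lowest arithmetic mean, 36.6, the bound was 2.09-fold. Among genes measured on both arrays the lowest were Fcgrt, the neonatal Fc receptor heavy chain, at 1561.5 and 817.5 (log2 difference -0.81), and Hfe, the class I-like regulator of iron uptake, at 466.5 and 244.9 (-0.80), although another Hfe probe gave 0.61. Both products pair with beta-2 microglobulin. H2-M3, which presents formylated peptides, read 700.7 and 410.4 (-0.64), and H2-T24, the highest after H2-Bl, 86.8 and 93.1 (0.23). Because several of these probes resemble each other, the 15 genes are not independent measurements. The median stayed between -0.48 and -0.33 under 9 ways of processing.

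Genes for peptide trimming, loading and assembly showed no common direction by brightest probe. Of 18, 8 lay below the median of all genes and 10 above. At least 2-fold lower or higher were 0, against 3.57% and 5.52% of all genes. Other probes of these genes ranged from -1.83 (Canx) to 0.92 (Lap3), with Lnpep at -1.81 and Hsp90b1 at -1.40. The relative median, 0.14, ranged from -0.11 to 0.14 under 9 ways of processing, so its sign depended on the processing. By brightest probe the highest was Blmh, a cytosolic peptidase, at 2206.1 and 3777.8 (log2 difference 0.90), with another probe at 0.09. Next was Sec61a1, a subunit of the translocation channel of the endoplasmic reticulum, at 0.73, with other probes at 0.07 and -0.22. Tapbpl, the tapasin-related loading factor TAPBPR, was the lowest by brightest probe, at 518.2 and 363.8 (-0.38), next to its relative Tapbp at -0.34. Nrd1, a cytosolic peptidase, was at -0.09. Canx, the chaperone of new heavy chains, was at 0.68 by its brightest probe but at 0.38 and -1.83 by others.

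The transcription factors and interferon signalling genes that act on class I genes were mixed as well. Of 36 listed, 35 had a probe and 33 were detected, and 21 lay below the median of all genes, with a relative median of -0.16. By brightest probe 1 was at least 2-fold lower and 1 at least 2-fold higher, against 3.57% and 5.52% of all genes. Other probes of these genes ranged from -1.29 (Ifngr2) to 0.82 (Jak1). Nlrc5, the main class I transactivator, had no probe under that name and was not analysed here. Nfyc, a subunit of the factor that binds CCAAT, read 2139.3 and 941.7 (log2 difference -1.06), while Nfya, its partner, read 1307.3 and 2133.7 (0.83), with another probe at -0.02. Socs3, a feedback inhibitor of cytokine receptors, read 7443.0 and 14818.5 (1.12, or 2.17-fold higher). Stat2, which carries type I interferon signals, read 146.5 and 82.4 (-0.70).

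MHC class II genes, whose products present peptides on professional antigen-presenting cells, gave mixed signals. Of 11 genes 9 were detected, and 5 of these 9 stayed under 100 on both arrays. The peptide editor genes H2-DMb1, at 1569.4 and 1738.9 (log2 difference 0.28, another probe -0.66), and H2-DMa, at 253.5 and 216.5 (-0.10), lay above that level. H2-Ab1 was the only class II gene past 2-fold, at 146.4 and 65.6 (log2 difference -1.03), where 3.57% of all genes were at least 2-fold lower. Its partner H2-Aa read 49.9 and 70.8 (0.63), in the other direction. Ciita, the class II transactivator, read 39.1, not well above background, and 63.4, at least 1.77-fold higher. H2-Oa, part of the class II peptide editor's regulator, read 130.1 and 191.1 (0.68), with another probe at 0.76, and the invariant chain gene Cd74 read 65.6 and 62.7. H2-Eb1, a further class II chain, read 81.1 and 56.7, and H2-Ob, the partner of H2-Oa, 65.1 and 46.8. Neither was well above background on the array labelled MARVELD1, so these are bounds, at least 1.31-fold and 1.27-fold lower, with no order between them.

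**Figure D5:**
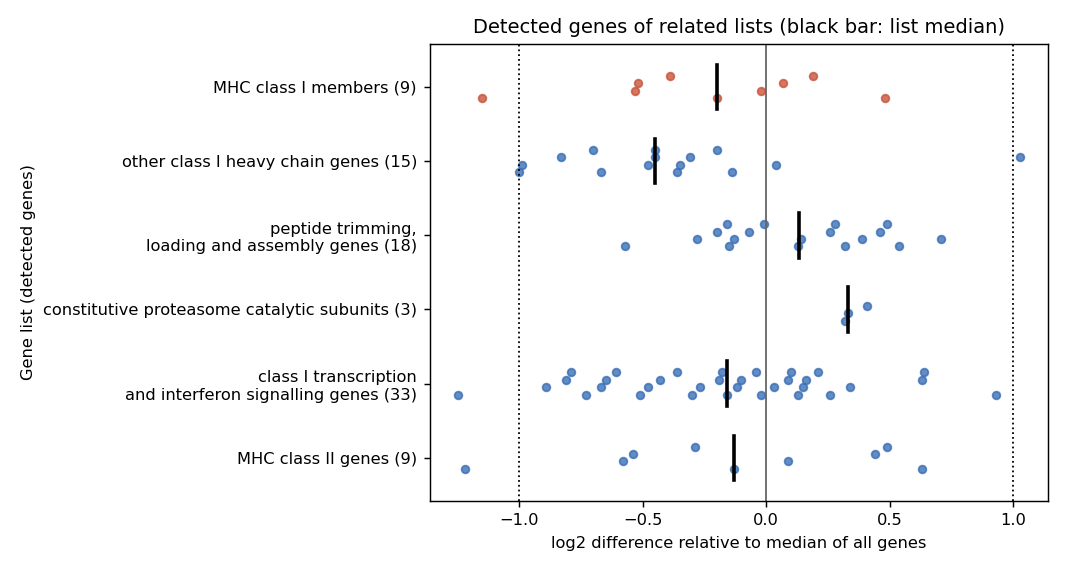
Log2 difference relative to the median of all genes (horizontal) for the detected genes of the 9-gene set and of 5 related lists, 1 point per gene by its brightest probe, or its bound where 1 array was not well above background, with black bars for list medians. The other class I heavy chain genes centre on -0.45 and the constitutive proteasome subunits on 0.33, with the 9 genes in between at -0.20.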

How the data were processed

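RNA of 2 samples was hybridised to single-colour Agilent mouse arrays, both on 1 slide. Per the file headers, the authors' deposited intensity of each spot was read, background-subtracted and detrended by Agilent Feature Extraction 9.5.3.1, with no scaling between arrays and coordinates on mm9. The authors also deposited normalized intensity for 26851 probes, found here to equal the processed intensity divided by 124.6 (empty vector) and 123.3 (other array), with column medians of 3.11 and 2.94. No label or header describes further steps.

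From the processed intensity, outlier spots were left out (116 and 223), log2 was taken, the 75th percentile of the array was subtracted and spots of a probe were averaged. No spot was saturated (0 on each). The 9 genes were taken by the files' gene names. Other probes were named through RefSeq (GRCm38.p6), 24787 by accession, 6027 more by symbol and a further 1808 by older name. A probe not well above background on 1 array gives a bound against the lowest mean log2 signal of a probe well above background there (intensities of 33.0 and 33.8), or its own signal where that is higher. With 1 array per group there is no test, and the number of arrays limits the precision. R 4.3.3, limma 3.58.1 and Python 3.11.15 were used, and the gene summary was tested on simulated data. From each related list the genes with the 2 highest and 2 lowest differences and any past 2-fold were named. Others named (H2-M3, H2-Aa, H2-Ob, H2-DMa, H2-DMb1, Cd74, Canx, Lap3, Lnpep, Hsp90b1, Ifngr2, Jak1, Col1a1, Thy1, Pdgfra, Ptprc, Itgax, Cd3e and the H2-Q2 and H2-Q10 probes) were chosen after their values were seen. Likeness of pattern is not defined over 2 arrays, so no gene was named for it. The 9 genes, the lists and the alternatives were chosen with earlier results of these data known. Without an mm9 annotation, probes were not assigned to exons or untranslated regions.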

Additional observations from a re-analysis of the deposited data

How the results depend on the processing

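The 9 genes were recomputed with loess, quantile normalization, array medians for scaling, normexp (offset 50) before quantile normalization, dim probes kept, probes required on both arrays, probes averaged per gene, the authors' deposited table, and limits of 1.5-fold and 3-fold. The count at least 2-fold lower, 0 of 9, became 1 (Tap1) with scaling to the array median, with quantile normalization, after loess and in the authors' table. With a limit of 1.5-fold it was 1 lower and 1 higher, against 9.03% and 19.7% of all genes. Relative to the median of all genes, Tap1 was at least 2-fold lower in 8 of 9 settings and at -0.76 with normexp. The median of the 9 relative to all genes stayed between -0.23 and -0.16. Of 72 values of single genes under these alternatives, 70 stayed within 0.38, the SD of a log2 difference between single spots over all brightnesses, a band chosen after the values had been seen. The exceptions were H2-K1 (-0.36) and H2-D1 (0.30) with the mean of all probes. Many of the 72 values were repeats. Keeping dim probes or requiring both arrays left all 9 genes unchanged. Averaging probes left Tap1, Tap2, Psmb8, Psmb9 and Psmb10 unchanged. Array medians and the authors' table shift genes by a constant, so values relative to the median of all genes hardly move. Counts of settings given here are therefore not counts of separate checks. H2-K1, 0.26, was at 0.02 after loess. B2m, 0.17, was at -0.15 after loess, -0.11 with normexp and -0.08 with quantile normalization or averaged probes. Relative to the median of all genes, Tap1, Tap2, Tapbp, Psmb9 and B2m stayed below 0 and Psmb8 and Psmb10 above 0 in all 9 settings. Dim signal limits Tap1, Tap2 and Psmb8 most. No paired analysis was possible because each group holds 1 array.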
